A study of Mus musculus with 4 samples.

Results

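The nuclear genes of the mitochondrial respiratory chain and of ATP synthase were followed in sorted blood progenitors of mouse bone marrow that carry or lack the function of Fbw7. The set comprised 91 genes of the 18194 genes named on the array. They were chosen by name: probe sets naming exactly 1 gene whose symbol begins with Nduf, Uqcr, Atp5 or Cox4 to Cox8, or is Sdha, Sdhb, Sdhc, Sdhd or Cyc1, with pseudogenes left out. Where a gene had several probe sets, the brightest one, by its mean log2 intensity across all 4 arrays, stood for it. The rule uses names and the mean level, and no difference between groups. By the complex they serve, 42 belong to complex I, 4 to complex II, 9 to complex III, 19 to complex IV and 17 to complex V.

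RNA was measured on Affymetrix arrays in 4 groups of 1 array each. LSK cells were sorted as lineage-negative, Kit-positive and Sca1-positive, a gate that holds blood stem cells and early multipotent progenitors. MP cells, the myeloid progenitors, came from the same lineage and Kit gate without Sca1. Each population was sorted from marrow labelled WT and from marrow labelled Fbw7 deficient. Fbw7, encoded by Fbxw7, is the part of an SCF ubiquitin ligase that recognises substrates such as MYC, cyclin E and Notch. Both genotypes were given polyI:C, a double-stranded RNA mimic, at 20 ug per g of body weight, in 3 doses every other day, and marrow was taken after 2 weeks. The labels used here do not say how Fbw7 function was removed, nor the strain, age or sex of the mice. For each genotype the marrow of 3 mice was combined ahead of sorting, so both populations of a genotype come from the same animals. Each array was made from 20 ng of total RNA amplified in 2 cycles. With 1 array per group there is no replicate, so no test, error or p-value is given, and every difference below is between those arrays and has no replicate check.

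As background, the respiratory chain passes electrons from NADH through complex I, or from succinate through complex II, to ubiquinone, then through complex III and cytochrome c to complex IV, where oxygen is reduced to water. Complexes I, III and IV pump protons across the inner mitochondrial membrane, and complex V, the ATP synthase, uses their return to make ATP. Most subunits are encoded in the nucleus and imported, while a small set is encoded by mitochondrial DNA. Hematopoietic stem cells are known to rely largely on glycolysis, and progenitors entering the cycle and maturing are known to use oxidative phosphorylation more.

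The 4 arrays had nearly equal distributions, with median intensities from 155 to 159. The 3' over 5' ratio of the Gapdh controls, a measure of how complete the amplified RNA was, was 4.30 on the wild-type LSK array and from 2.60 to 2.95 on the others. The most abundant probe set of Fbxw7 read 1355, 1103, 691 and 958, with LSK before MP cells and wild type first in each. A second one read 203, 216, 128 and 174. In the MP cells labelled Fbw7-deficient both probe sets were therefore higher than in wild type, and in LSK cells 1 of 2 was lower. Which part of the gene was removed is not known from the labels, so these probe sets do not check the labels, and Fbw7-deficient below means labelled so. The summed intensity of the stem cell markers was 39864, 22113, 14150 and 9408 in the same order, over 10 markers measured of 12 listed. Ly6a, which encodes Sca1, is not analysed here. Stem cell markers were thus highest on the wild-type LSK array, myeloid progenitor markers were highest on the MP arrays, and Mpo, Elane and Kit read above the array median on every array.

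In LSK cells the respiratory chain and ATP synthase genes were mostly higher without Fbw7, by small amounts spread over nearly all of them. The difference between the Fbw7-deficient and the wild-type LSK array was above 0 for 81 of 91 genes, against 54.2% of all named genes. Its median was 0.23 on the log2 scale, against 0.02 over all named genes. At least 1.25-fold higher were 30 genes (33.0% of the 91, against 10.5% of all named genes). Only 1 gene, Cox7c, was at least 1.25-fold lower (against 12.7%). Among named genes with a mean log2 of at least 11, these shares were 15.8% and 13.6%. At 2-fold, none of the 91 was higher (against 1.26%) and none was lower (against 1.4%). All 5 complexes had a median above 0: 0.24 for complex I, 0.30 for complex II, 0.35 for complex III, 0.18 for complex IV and 0.25 for complex V. The medians of the complexes kept this sign when each array was centred on its median or its upper quartile and when the arrays were normalized again to equal quantiles.

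**Figure D1:**
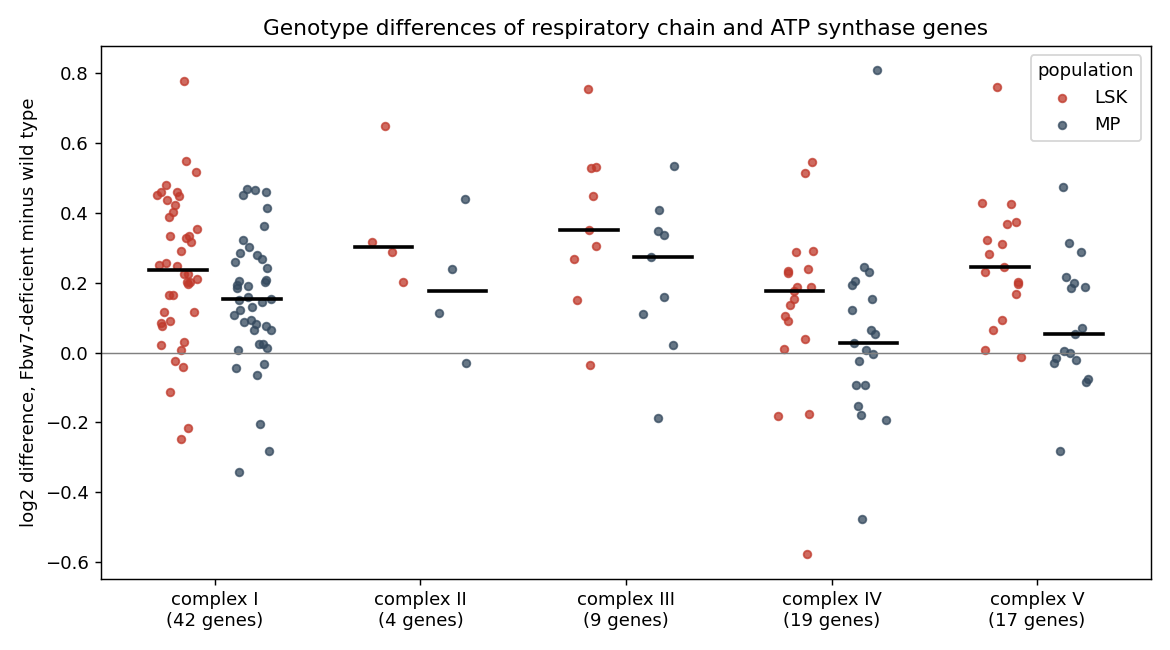
Each point is 1 gene, placed by complex along the horizontal axis, with the log2 difference Fbw7-deficient minus wild type on the vertical axis, red for LSK and grey-blue for MP cells; the black bar is the median of the group. In LSK cells 81 of 91 points lie above 0 and in MP cells 68 of 91, and the lowest point in both is Cox7c.

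The same samples differed in their cell markers. Going from the wild-type to the Fbw7-deficient LSK array, 0 of 10 stem cell markers were higher, and their summed intensity was 39864 against 22113. Of the 9 myeloid progenitor markers measured, 8 were higher, with sums of 62747 and 110888. All 6 erythroid markers measured were higher, with sums of 4113 and 19718, and all 8 neutrophil and macrophage markers were higher, with sums of 61012 and 122675. Of the 5 B and plasma cell markers measured, 4 were higher, with sums of 9202 and 12588, and of the 6 T and NK cell markers 5 were, with sums of 6243 and 6457. Kit is on both the stem cell and the progenitor list, and Klf1 on both the progenitor and the erythroid list. Intensities on these arrays do not reach 0, so a reading alone does not show that a cell type was present. On the wild-type LSK array Epb42 read 60.7, Rhag 101 and Cd3g 44.4, under the array median of 156. In bulk RNA a different mix of cells and a different level within each cell cannot be told apart. The part of the cell mix, and of the 3' to 5' ratio, in the differences of the respiratory chain genes was not tested.

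Complex I takes electrons from NADH at a flavin, passes them along iron-sulfur clusters and reduces ubiquinone. In the values that follow, 4 numbers in a row are linear intensities: first LSK, wild type and then Fbw7-deficient, followed by MP in the same order of genotypes. The 6 core subunits analysed here were all higher on the Fbw7-deficient array in both populations, with medians of 0.29 in LSK and 0.23 in MP on the log2 scale. Ndufs1, the largest subunit of the peripheral arm, which carries iron-sulfur clusters, read 2656, 3798, 3274 and 4528. It was lowest on the wild-type LSK array, and the log2 difference was 0.52 in LSK and 0.47 in MP, the highest of complex I in MP. Ndufs3, a core subunit of the ubiquinone-reducing module, read 3057, 4264, 3868 and 4631, a log2 difference of 0.48 in LSK and 0.26 in MP. In all 6 core subunits, as in these, the wild-type LSK array was lowest and the Fbw7-deficient MP array highest.

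Ndufv1, which binds the flavin where NADH is oxidised, read 9693, 11578, 11211 and 11919.6, with 0.26 in LSK and 0.09 in MP. Its partner Ndufv2 read 8927, 11125, 10900.3 and 11926, with 0.32 and 0.13; the dimmest of its 3 probe sets gave 0.56 in LSK and less than 0.01 below 0 in MP. These NADH-side subunits differed more in LSK than in MP cells. Ndufs7, which carries the last iron-sulfur cluster before ubiquinone, read 7008, 8198, 7303 and 9726, with 0.23 in LSK and 0.41 in MP. Its second probe set read 5532, 7084, 7223 and 8526, with 0.36 and 0.24, so Ndufs7 was higher without Fbw7 on both, while the population with the larger difference was MP on the first and LSK on the second. Ndufs8, which carries a pair of clusters before it, read 11022, 12669.6, 11417 and 13062, with 0.20 and 0.19.

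The accessory subunits surround the core and are needed for its assembly and stability. Of 28, 24 were above 0 in LSK with a median of 0.20, and 23 in MP with a median of 0.12. Ndufa5 read 3346, 4604, 4831 and 6646 and differed by 0.46 in both LSK and MP on the log2 scale. Ndufab1, the mitochondrial acyl carrier protein, which also serves fatty acid and iron-sulfur cluster synthesis, read 5116, 6979, 6029 and 8250.5, with 0.45 in both; a dimmer probe set of it read 546, 507, 464 and 478 and was lower in Fbw7-deficient LSK. In each of these genes, on the brightest probe set, the 2 Fbw7-deficient arrays lay above the wild-type array of the same population by nearly the same factor. Ndufb10 read 5167, 5974, 5464 and 7545, with 0.21 in LSK and 0.47 in MP. Here it was the Fbw7-deficient MP array that stood above the other 3. Ndufs4, an accessory subunit whose loss in people and mice causes a severe mitochondrial disease, read 1604, 1558, 2672 and 2108. It was lower without Fbw7 in both populations (-0.04 in LSK and -0.34 in MP), and the MP difference was the lowest of complex I. The other probe sets of Ndufs4 with a mean above the array median read 673, 621, 828 and 836 and 369, 243, 434 and 267. The first was lower in LSK and close to equal in MP, and the second was lower without Fbw7 in both populations.

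Ndufa9 differed in direction between the populations, and Ndufc1 was higher without Fbw7 in LSK and close to equal in MP. Ndufa9, a subunit near the ubiquinone site, read 4274, 5644, 6558 and 5693, a log2 difference of 0.40 in LSK and -0.20 in MP. Ndufc1 read 5523, 7599, 8501 and 8304, with 0.46 in LSK and -0.03 in MP. For both, the wild-type LSK array was the low value and the other 3 arrays lay closer together. Ndufb4 had a single-gene probe set with a mean below the array median, at 81.5, 68.7, 93.7 and 94.1, and its difference rests on dim signal.

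Assembly factors build complex I and are not part of the finished enzyme. Of 8, 7 were above 0 in LSK, with a median of 0.37, and 7 in MP, with a median of 0.17. Ndufaf6 read 863, 1478, 1281 and 1424, and its LSK difference of 0.78 was the highest of all 91 genes, with 0.15 in MP. The wild-type LSK array stood below the other 3, which lay between 1281 and 1478. Ndufaf7, a methyltransferase, read 1351, 1978, 1467 and 1691, with 0.55 and 0.21. Ndufaf2, which binds a late assembly intermediate, read 854, 1045, 792 and 991, and was the complex I gene with the highest level in wild-type LSK relative to wild-type MP (0.11). Ndufaf3 was the exception in LSK, at 625, 538, 705 and 737, with -0.22 in LSK and 0.06 in MP.

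Complex II oxidises succinate and is also an enzyme of the TCA cycle. All 4 subunits were higher without Fbw7 in LSK and 3 of 4 in MP. Sdhd, a membrane anchor, read 3298, 5170.5, 5488 and 6483, and had the largest difference of the complex in LSK, 0.65, with 0.24 in MP. Sdhc, the other anchor, read 1675, 2088, 1814 and 2462, with 0.32 in LSK and 0.44 in MP. Thus the 2 anchors led the complex, Sdhd in LSK and Sdhc in MP, on these probe sets. Their second probe sets were higher without Fbw7 too, with 0.35 and 0.34 for Sdhd and 0.10 and 0.18 for Sdhc. Sdhb, the iron-sulfur subunit, read 5953, 7273, 5969 and 6451, with 0.29 and 0.11. Sdha, the flavoprotein that oxidises succinate, read 10034, 11532, 11873 and 11626, with 0.20 in LSK and -0.03 in MP; its sign in MP turned when each array was centred on its median.

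Complex III passes electrons from ubiquinol to cytochrome c. It had the highest median of the 5 complexes in both populations, 0.35 in LSK and 0.27 in MP, with 8 of 9 genes above 0 in each. Cyc1, cytochrome c1, read 12543, 17132, 13379 and 16913, with 0.45 in LSK and 0.34 in MP. For Cyc1 the 2 Fbw7-deficient arrays were both above the 2 wild-type arrays. Uqcrfs1, the Rieske iron-sulfur protein, read 9539.5, 12174, 11401 and 11581, with 0.35 in LSK and 0.02 in MP. Only its wild-type LSK array stood below the rest.

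Among the subunits without a redox centre, Uqcrq read 1849, 3124, 3689 and 4696. Its log2 difference was 0.76 in LSK and 0.35 in MP, the highest of complex III in LSK. The 3 other probe sets of Uqcrq read between 172 and 231, and 1 of them was lower in Fbw7-deficient LSK, so the value rests on the probe set used. Uqcrc1, a core protein of the matrix side, read 7115, 10269, 10019.8 and 11197, with 0.53 and 0.16, while Uqcrc2, its partner, read 14104, 15643, 12940.0 and 15629.6, with 0.15 and 0.27. A second probe set of Uqcrc2 read 7442, 9575, 8118 and 8943, with 0.36 in LSK and 0.14 in MP, so which population differed more depended on the probe set for Uqcrc2. All these values were above 0. Uqcr11, a small subunit, read 3833, 5544, 6447 and 8552, with 0.53 and 0.41, lowest on the wild-type LSK array and highest on the Fbw7-deficient MP array. Uqcr10 had the highest MP difference of the complex, 0.54, with 0.30 in LSK, at 2409, 2975, 2587 and 3749.8. Its dimmer probe sets, which read between 138 and 517, gave 0.69 and 0.94 in LSK and 0.68 and 0.86 in MP. On them both differences of Uqcr10 were larger, and LSK did not lie below MP. Uqcrh, the hinge protein beside cytochrome c1, read 3366, 4055, 5964 and 5232, with 0.27 in LSK and -0.19 in MP. Uqcrb read 24849, 24243, 25862 and 27920.5 and was the lowest of the complex in LSK, at -0.04, a sign that depended on how the arrays were scaled. Its second probe set gave 0.14 in LSK.

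Complex IV, cytochrome c oxidase, has a catalytic core made by mitochondrial DNA, and nuclear subunits that surround it. Some of these exist as a general form and as forms known from muscle, testis, lung or low oxygen. The general subunits were higher without Fbw7 in LSK for 9 of 10, with a median of 0.21, and in MP for 7 of 10, with a median of 0.09. Cox4i1, the general form of the largest nuclear subunit, read 17968, 20473, 20163 and 21084, with 0.19 and 0.06. Cox6b1 read 12801, 15638, 15861 and 18800.1, with 0.29 and 0.25, and Cox7a2 read 12508, 15317, 14886 and 17453, with 0.29 and 0.23. In all 3 the wild-type LSK array was lowest and the Fbw7-deficient MP array highest. Cox6a1 read 18901, 21357, 19909 and 22754, with 0.18 and 0.19. Cox8a read 2504, 2954, 3692 and 3464, with 0.24 in LSK and -0.09 in MP. Ndufa4, first assigned to complex I and now known as a subunit of complex IV, read 4391, 5138, 4557 and 4645, with 0.23 and 0.03.

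Cox7c, a small general subunit, ran the other way. It read 1273, 853, 752 and 539.7, with log2 differences of -0.58 in LSK and -0.48 in MP, the lowest of all 91 genes in each comparison. Its second probe set read 243, 169, 167 and 119.5 and had the same order. On both, the wild-type LSK array was the highest of the 4 and the Fbw7-deficient MP array the lowest. Cox7a2l, which joins complexes III and IV in supercomplexes, had the same order at 16102, 14258, 12371 and 11601, with -0.18 and -0.09. Of its 2 other probe sets, the one reading 12291, 11188, 9398 and 8319 had the same order and the one reading 3909, 4495, 3740.5 and 3442 was higher, not lower, in Fbw7-deficient LSK.

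The 8 tissue or low-oxygen forms had medians of 0.12 in LSK and -0.01 in MP, and the MP sign turned when the arrays were centred on their medians or upper quartiles or normalized again. Cox6b2, known as the testis form of Cox6b, read 338, 493, 587 and 1029. Its MP difference of 0.81 was the highest of all 91 genes, with 0.55 in LSK, and it was lowest on the wild-type LSK array. Cox4i2, the form of Cox4 known from lung and low oxygen, read 205, 225, 235 and 208, and Ndufa4l2, a target of the hypoxia factor HIF1 in other cells, read 255, 274, 309 and 304. Cox6a2, a muscle form, read 287, 253, 245 and 247. These 3 varied by less than 1.25-fold between any 2 arrays. Cox8c, known from testis, read 923, 1027, 1017 and 914. The muscle forms Cox8b and Cox7a1 and the testis form Cox7b2 had mean values below the array median, at 134, 135, 153 and 134, 40.3, 57.6, 41.6 and 47.9 and 22.1, 22.7, 20 and 20.8. The summed intensity of 6 muscle markers lay between 769 and 862 on the 4 arrays.

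Complex V has a catalytic F1 head in the matrix, a ring of c subunits that turns in the membrane, and a stalk and membrane part that hold the head still. The 5 F1 genes were all higher without Fbw7 in LSK, with a median of 0.20, while 1 of 5 was higher in MP, with a median of -0.02; with arrays centred on their medians that MP median was 0.01. Atp5a1, the alpha subunit, read 19860.0, 20765, 20392 and 20089, with 0.06 in LSK and -0.02 in MP. Atp5b, the catalytic beta subunit, read 16828, 20475, 20396 and 19959.5, with 0.28 in LSK and -0.03 in MP. For Atp5b the wild-type LSK array was low and the other 3 lay between 19959.5 and 20475. The brightest probe set of Atp5a1, which forms the hexamer of the head with it, was nearly level on all 4 arrays. Its second probe set was not: it read 14255, 17920.0, 18881 and 17014, with 0.33 in LSK and -0.15 in MP, lowest on the wild-type LSK array.

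The c subunit is made from 3 genes whose mature proteins are known to be identical. Atp5g1 read 2178, 3691, 3884 and 5399.9, with 0.76 in LSK and 0.48 in MP, the highest of complex V in both. Atp5g2 read 3480.5, 4491, 4601 and 5615, with 0.37 and 0.29. Atp5g3 read 19891, 22338, 22962 and 22924, with 0.17 in LSK and less than 0.01 below 0 in MP. So the 3 genes of one protein had their differences in the order Atp5g1, Atp5g2, Atp5g3 in both populations. Atp5g1 is known elsewhere as the form that varies between tissues.

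Of the 9 stalk and membrane genes, 8 were above 0 in LSK, with a median of 0.31, and 7 in MP, with a median of 0.07. Atp5pb, subunit b of the outer stalk, read 14272, 16367, 20060.2 and 16487, with 0.20 in LSK and -0.28 in MP, the lowest of complex V in MP. Its second probe set read 1863, 2999, 7065 and 3265, with 0.69 and -1.11, the same directions and larger. On both the wild-type MP array stood above the other 3, and the size of the difference depended on the probe set. Atp5h, subunit d, read 17316, 17157, 19338 and 19393, and Atp5j, subunit F6, read 7199, 7229.6, 7115 and 7466. On these probe sets both were within 0.1 of 0 in each genotype comparison, and their sign in LSK depended on how the arrays were scaled. The second probe set of Atp5h read 6373, 7543, 8633 and 8616, with 0.24 in LSK and close to 0 in MP. Atp5l, subunit g, read 2219.7, 2990.1, 3108 and 3542, with 0.43 and 0.19.

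In MP cells the genes were also more often higher than lower without Fbw7, with smaller differences. The MP difference was above 0 for 68 of 91 genes, against 50.9% of all named genes, and its median was 0.12, against 0.00 over all named genes. At least 1.25-fold higher were 14 genes (15.4%, against 8.5% of all named genes), and 2 were at least 1.25-fold lower, Cox7c and Ndufs4 (against 10.1%). Among named genes with a mean log2 of at least 11, these shares were 8.69% and 14.2%. At 2-fold, none of the 91 was higher (against 0.561%) and none lower (against 1.02%). The second probe set of Atp5pb, at -1.11, was 2-fold lower, and stood for the gene when probe sets marked _x_at or _s_at, or those with a mean log2 of 13 and over, were left out. Complex I had a median of 0.15 with 36 of 42 above 0, complex II 0.18 with 3 of 4, complex III 0.27 with 8 of 9, complex IV 0.03 with 11 of 19 and complex V 0.05 with 10 of 17. Complexes I, II and III thus had the larger medians, and complexes IV and V were near 0.

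Beside this, in MP cells the stem cell markers summed to 14150 and 9408, wild type first, and the myeloid progenitor markers to 165065 and 177141, with 7 of 9 higher without Fbw7. The erythroid markers summed to 12362 and 28058, with 6 of 6 higher, and the neutrophil and macrophage markers to 94180 and 99375, with 5 of 8 higher. Of the latter list, Csf1r was at least 2-fold lower without Fbw7 (5624 and 2410, a log2 difference of -1.22). Ccr2 (-0.40) and Mmp8 (-0.18) were lower too. The B and plasma cell markers summed to 7625 and 3799, with 1 of 5 higher and 2 at least 2-fold lower. The T and NK cell markers summed to 10615 and 12118, with 1 of 6 higher. Nkg7, the one that was higher, read 9308 and 10918 and made up most of both sums. The part of the cell mix in the MP differences of the respiratory chain genes was not tested.

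Set side by side, the LSK difference was larger than the MP difference for 65 of 91 genes (against 51.8% of all named genes), by a median of 0.10. Both differences were above 0 for 63 genes and both below 0 for 5: Cox7a2l, Cox7c, Ndufa3, Ndufb11 and Ndufs4. For Ndufb11 the dimmest of 3 probe sets was above 0 in LSK, at 0.07. Ndufa3 was at -0.03 in LSK and -0.04 in MP, and its LSK sign turned with arrays centred on their upper quartiles. In 18 genes the LSK difference was above 0 and the MP difference below, and in 5 it was the reverse. The LSK and MP comparisons share no array, but the arrays of a genotype share the pooled animals. Over the 91 genes the differences in the 2 populations had a Pearson correlation of 0.56 and a Spearman correlation of 0.53, and over all named genes a Pearson correlation of 0.41; these describe genes, which are not independent replicates. Under the scalings tried, 8 of 91 genes in LSK and 6 in MP turned sign or reached 0. Ndufa13 in LSK reached 0 with the arrays normalized again and did not go below it.

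**Figure D2:**
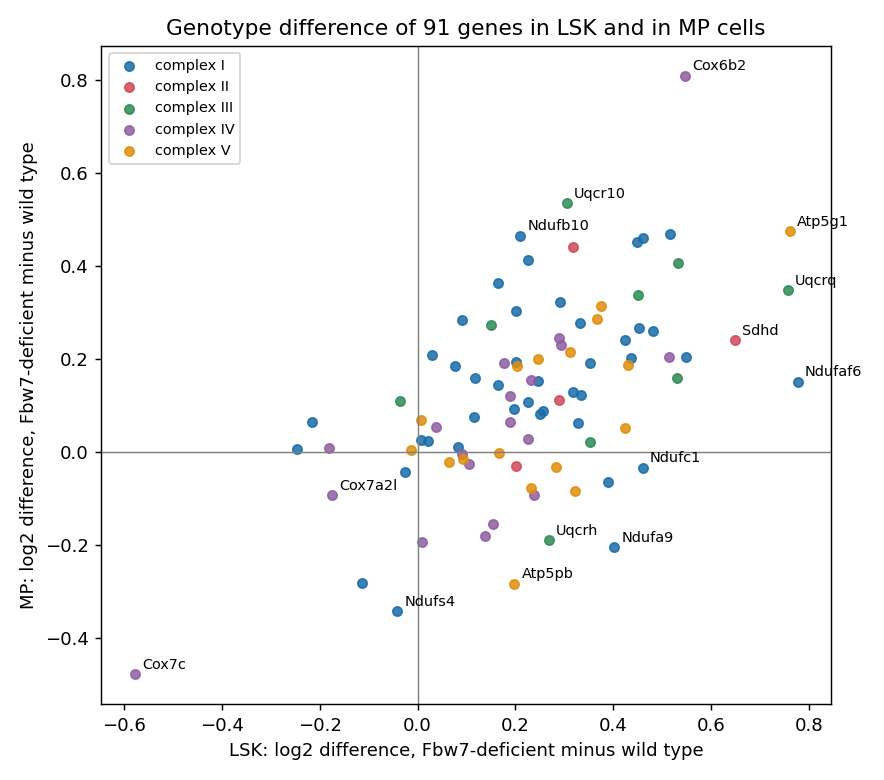
Each point is 1 of the 91 genes, with its log2 difference Fbw7-deficient minus wild type in LSK cells on the horizontal axis and in MP cells on the vertical axis, coloured by complex. The upper right part, above 0 on both axes, holds 63 genes; Cox6b2 lies at the top, Cox7c farthest to the lower left, and Ndufa9, Ndufc1, Uqcrh and Atp5pb lie to the right of 0 and below it.

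In wild-type marrow, LSK cells had less of these transcripts than MP cells. The wild-type LSK array was below the wild-type MP array for 83 of 91 genes, against 58.6% of all named genes, with a median difference LSK minus MP of -0.20, against -0.05. At least 1.25-fold lower in LSK were 29 genes (31.9%, against 13.7%), and 2 were at least 1.25-fold higher, Cox7c and Cox7a2l (against 17.1%). Among named genes with a mean log2 of at least 11, these shares were 20.1% and 21.7%. At 2-fold, none of the 91 was higher (against 3.56%) and none lower (against 1.66%). However, 1 gene was lower at 2-fold under each of the 3 other scalings of the arrays, and 1, Atp5pb, where its second probe set counted (-1.92). The medians by complex were -0.21, -0.18, -0.26, -0.14 and -0.35 for complexes I to V. Complex V had the lowest median here, led by Atp5g1 at -0.83. In complex III the lowest was Uqcrq at -0.997 and the next Uqcrh at -0.83. In complex I it was Ndufs4 at -0.74, in complex II Sdhd at -0.73 and in complex IV Cox6b2 at -0.80. Beside Cox7c at 0.76 and Cox7a2l at 0.38, Uqcrc2 at 0.12 was the one gene of complex III that was higher in wild-type LSK, but its second probe set had the opposite sign, -0.13.

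In Fbw7-deficient marrow the same comparison gave smaller differences. The Fbw7-deficient LSK array was above the Fbw7-deficient MP array for 23 of 91 genes (against 47.2%), with a median of -0.12, against -0.02 over all named genes. With each array centred on its median the count was 12 and the median -0.19, and with each centred on its upper quartile 14 and -0.18. At least 1.25-fold lower in LSK were 18 genes (against 11.9%), and Cox7c was at least 1.25-fold higher (against 14.5%). Cox6b2, at -1.06, was 2-fold lower (against 1.14%), and was not once 50 was added to every value before the log. This comparison and the wild-type one share no array. The wild-type LSK array enters both the LSK genotype difference and the wild-type LSK minus MP difference, so these 2 share its measurement error. For Uqcrq, Atp5g1, Sdhd and Uqcr11 they are 0.76, 0.76, 0.65 and 0.53 for genotype, and -0.997, -0.83, -0.73 and -0.75 for population.

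Looked at over all 4 arrays, the lowest value of a gene lay on the wild-type LSK array for 74 of 91 genes, against 39.6% of all named genes. The highest lay on the Fbw7-deficient MP array for 56 of 91, against 33.8%. The wild-type LSK array is also the one with the highest 3' to 5' ratio of the Gapdh controls and the highest sum of stem cell markers, and the Fbw7-deficient MP array is the one with the lowest poly-A controls added to the RNA (median log2 8.44, against 9.11 to 9.15 on the others). Their part in this order was not tested. The 2 most frequent orders from low to high both began with wild-type LSK and ended with Fbw7-deficient MP. With wild-type MP before Fbw7-deficient LSK it held for 26 genes, and with Fbw7-deficient LSK before wild-type MP for 24. The full reverse, from Fbw7-deficient MP lowest to wild-type LSK highest, held for 2 genes, Cox7c and Cox7a2l.

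**Figure D3:**
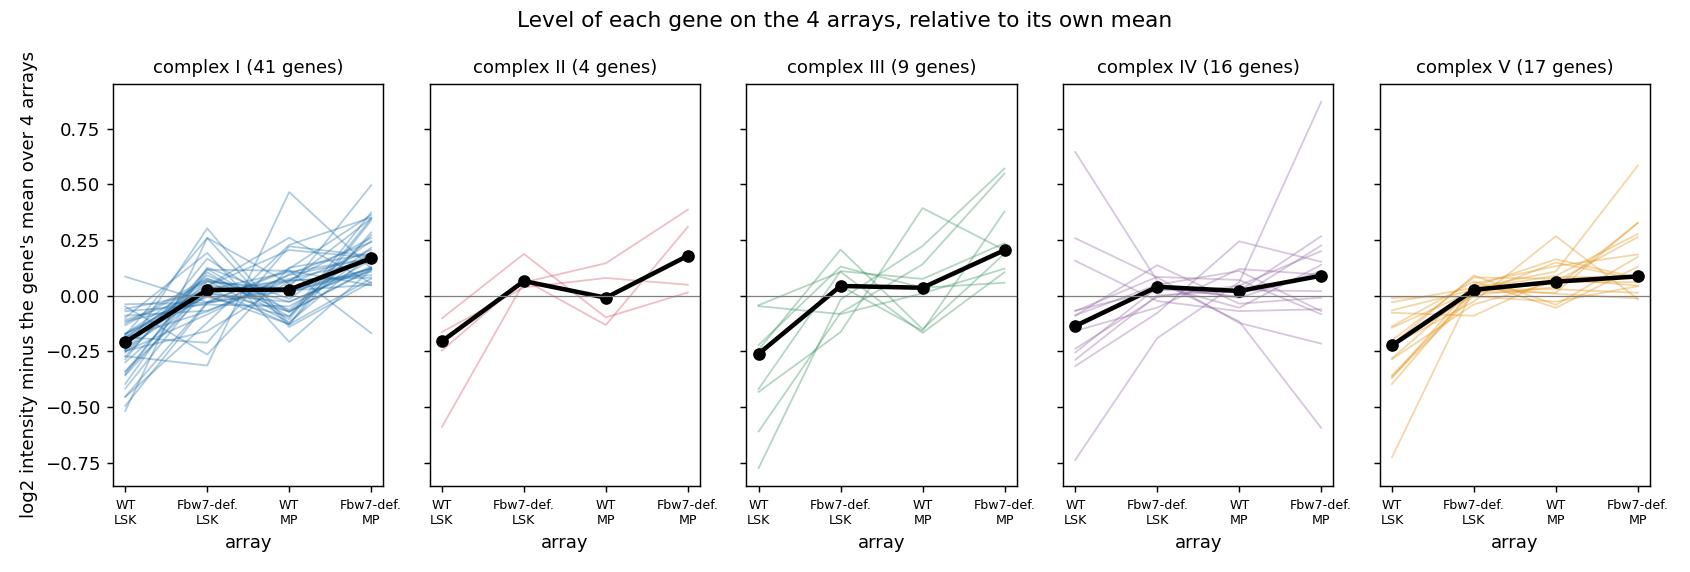
For each complex, thin lines show the log2 intensity of a gene on the 4 arrays minus its own mean over them, for the 87 genes whose mean reached the median of all values, and the black line with points is the median. The wild-type LSK array is the lowest point of the median line in all 5 complexes; in complex IV the thin lines of Cox7c and Cox7a2l fall from array to array, from left to right, and that of Cox7c is the steeper.

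The LSK difference was smaller among the brightest genes, and the MP difference was smallest at a mean log2 of 14 and over. Among genes with a mean log2 value from 11 to 12, the median LSK difference was 0.30 over 13 genes, and from 12 to 13 it was 0.32 over 21, with all genes of both bands above 0. From 13 to 14 it was 0.20 over 25 genes, and at 14 and over it was 0.17 over 12 genes. Below 11 and above the array median it was 0.30 over 16 genes, and over all 87 genes above the array median the Pearson correlation of level and LSK difference was -0.064, so the smaller differences belong to the top of the range only. In all named genes the LSK medians from 11 up were 0.00, 0.03, 0.05 and 0.03. The MP medians of the member genes in the same bands were 0.20, 0.19, 0.13 and 0.00, with 6 of 12 above 0 in the top band. Below 11 and above the array median the MP median was 0.09. In all named genes the MP medians from 11 up were 0.00, -0.01, -0.03 and -0.01. Further probe sets of the same genes gave a comparison within genes: 73 of them, in 48 genes, had a mean at or above the median of all values. Their LSK difference had the sign of the brightest probe set in 64 of 73 and was larger in 52 of 73. The next brightest probe set had a median of 0.30 over the 48 genes, and the brightest 0.23. In MP these were both 0.14. Cox6a1 is an example: its brightest probe set read 18901, 21357, 19909 and 22754, a log2 difference of 0.18 in LSK, and its second read 2882, 4147, 4797 and 5939.6, with 0.52. Arrays lose proportion near their upper end, and whether this acted here was not tested.

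**Figure D4:**
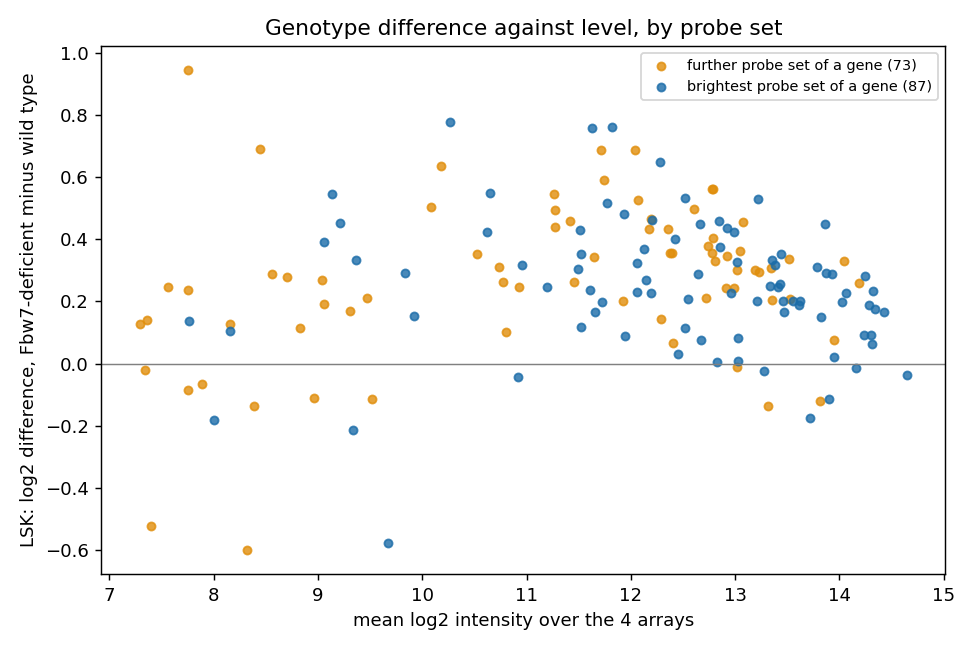
Each point is a probe set with a mean log2 intensity at or above the median of all values, placed by that mean on the horizontal axis and by the LSK log2 difference Fbw7-deficient minus wild type on the vertical axis; blue is the brightest probe set of each of 87 genes and orange the 73 further ones. Points from 12 to 13 lie mostly above 0.2, and those at 14 and over lie below 0.35.

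Other genes of mitochondrial energy metabolism, taken from lists set out by name, were described in the same way. Over all named genes, 54.2% were above 0 in LSK and 50.9% in MP. The mitochondrial ribosomal proteins, which translate the subunits encoded by mitochondrial DNA, were above 0 for 75 of 76 in LSK, with a median of 0.35, and for 71 of 76 in MP, with a median of 0.26. Mrps22, of the small subunit, read 1510.5, 2999.6, 2164 and 3185 and had the largest LSK difference of the list, 0.99. The import machinery, which brings nuclear-encoded subunits into mitochondria, was above 0 for 14 of 16 in LSK, with a median of 0.38, and for 15 of 16 in MP, with a median of 0.26. Tomm40, the channel of the outer membrane, read 909, 1611, 1731 and 2335, with 0.83 and 0.43, and Timm9, a chaperone between the membranes, read 546, 900.2, 741 and 1110.3, with 0.72 and 0.58. Genes of pyruvate dehydrogenase and the TCA cycle, which supply NADH and succinate, were above 0 for 16 of 16 in LSK, with a median of 0.28, and for 9 of 16 in MP, with a median of 0.14. Dlat, the acetyltransferase of pyruvate dehydrogenase, read 809.7, 1541, 1233 and 2088, with 0.93 and 0.76.

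Electron carriers and ubiquinone synthesis were above 0 for 13 of 16 in LSK (against 54.2% of all named genes), with a median of 0.19. In MP 12 of 16 were above 0 (against 50.9%), with 0.15. Cycs, cytochrome c, which carries electrons from complex III to complex IV, read 17956, 21060.3, 20777 and 23533, with 0.23 and 0.18. Assembly factors outside the symbol rule were above 0 for 31 of 39 in LSK, with a median of 0.10, and for 29 of 39 in MP, with 0.14. Among them Coa7 read 399, 623, 596 and 808, with 0.64 in LSK, and Ecsit, a complex I assembly factor, read 477, 721, 637 and 697, with 0.60. The list of carriers of ADP, ATP and phosphate and of uncoupling, which also holds the Vdac channels, was above 0 for 5 of 7 in LSK, with a median of 0.07, and for 3 of 7 in MP. Its lowest value was that of Slc25a31, the testis form of the ADP and ATP carrier, at -0.78 in LSK and -1.04 in MP. It read 34.7, 20.3, 47.5 and 23, below the array median throughout, so the difference rests on dim signal. No gene encoded by mitochondrial DNA is named in the annotation used here, so these subunits are not analysed here.

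The regulators of these genes had no shared direction. Of 23, 12 were above 0 in LSK (52.2%, against 54.2% of all named genes), with a median of 0.02. In MP 13 were above 0 (56.5%, against 50.9%), with 0.06. These shares were close to those of all named genes. Nrf1, a factor that binds many respiratory chain promoters, read 514, 575, 531 and 622, with 0.16 and 0.23. Gabpa, the DNA-binding part of GABP, read 4033, 3963, 3013 and 3316, with -0.03 in LSK. Tfam, which packs and transcribes mitochondrial DNA, read 2424, 2423, 2736 and 2313, close to equal in LSK and -0.24 in MP. Tfb2m, a mitochondrial transcription factor, read 2342, 3068, 2343 and 2501, with 0.39 in LSK, and Pprc1, a coactivator of the PGC1 family, read 1729, 2148, 1763 and 2360.1, with 0.31. These 2 stood highest of the list in LSK. The lowest in LSK was Ppargc1a, the coactivator PGC1 alpha, at -0.75, a dim probe set that read 72.8, 43.4, 40 and 34.9. The lowest in MP was Gabpb1, the partner of Gabpa in GABP, which read 953, 799, 725 and 456, with -0.25 in LSK and -0.67 in MP. Cytosolic ribosomal proteins are another large group of abundant housekeeping transcripts. They were above 0 for 23 of 48 in LSK (47.9%, against 54.2%), with a median of 0.00 to 2 decimals. In MP 30 of 48 were above 0 (62.5%, against 50.9%), with 0.03.

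**Figure D5:**
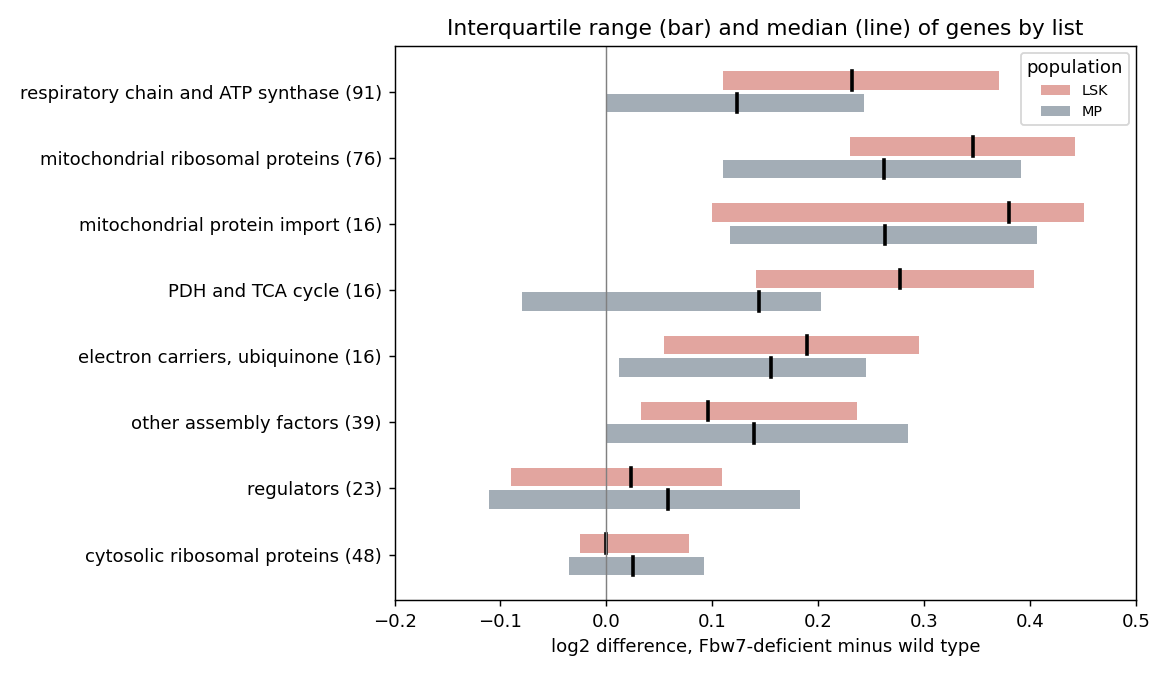
For each gene list the bar spans the interquartile range of its genes and the black line is the median of the log2 difference Fbw7-deficient minus wild type on the horizontal axis, red for LSK and grey for MP; the number of genes is in brackets. Mitochondrial ribosomal proteins, import and the 91 respiratory chain genes lie to the right of 0 in LSK, and cytosolic ribosomal proteins and regulators lie around 0.

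Promoter windows of 300 bases, 250 before and 50 after the start of each gene, were taken from RefSeq (GRCm38.p6) for 74 of the 91 genes, since many of the genes moved together; the other 17 have no window in the table used. The windows were searched on both strands for short motifs. The NRF1 motif, read as GCGCA, any base and GCGC, was in 17 of 74 genes (23.0%, against 7.17% of protein-coding genes with a window). The YY1 motif, AAGATGGC, was in 10 (13.5%, against 3.57%), and the ETS motif bound by GABP, CCGGAAGT, in 5 (6.76%, against 5.69%). The E-box CACGTG, bound by MYC with MAX among others, was in 6 (8.11%, against 8.91%). The ERR half-site TNAAGGTCA was in 3 (4.05%, against 1.19%), the CCAAT box in 32 (43.2%, against 42.3%), the GC box GGGCGG in 35 (47.3%, against 49.2%) and TATAAA in 8 (10.8%, against 14.8%). The NRF1 motif reads nearly the same on both strands, so a site can match on both and is counted once per gene. A match is a description of letters and not evidence of binding.

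The 250 bases before the start are printed 5' to 3' on the strand of the gene for 6 genes: Atp5g1 and Uqcr11, among the largest LSK differences, Atp5g2 and Cox6a1, which hold the NRF1 motif, and Cox7c and Cox7a2l, which ran the other way. Capitals mark matches to NRF1, ETS, YY1 or E-box, and position -1 is the base just before the start. All 6 lie on the minus strand.
Atp5g1, chr11:96075632-96075881, E-box at -44: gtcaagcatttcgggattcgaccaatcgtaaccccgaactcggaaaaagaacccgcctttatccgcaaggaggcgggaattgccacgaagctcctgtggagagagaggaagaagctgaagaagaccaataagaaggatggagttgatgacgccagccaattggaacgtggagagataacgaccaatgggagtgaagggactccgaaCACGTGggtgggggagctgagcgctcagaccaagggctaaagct
Atp5g2, chr15:102671048-102671297, NRF1 at -42: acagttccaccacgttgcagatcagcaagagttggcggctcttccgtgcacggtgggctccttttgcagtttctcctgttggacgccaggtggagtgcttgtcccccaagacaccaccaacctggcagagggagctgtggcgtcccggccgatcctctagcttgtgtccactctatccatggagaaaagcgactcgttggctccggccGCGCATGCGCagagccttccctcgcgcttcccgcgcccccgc
Cox6a1, chr5:115348959-115349208, NRF1 at -162 and -117: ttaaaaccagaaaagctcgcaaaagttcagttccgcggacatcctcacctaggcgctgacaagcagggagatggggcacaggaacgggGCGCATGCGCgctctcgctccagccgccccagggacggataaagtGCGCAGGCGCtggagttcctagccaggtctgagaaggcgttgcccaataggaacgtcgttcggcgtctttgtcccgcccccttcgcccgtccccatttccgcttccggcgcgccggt
Uqcr11, chr10:80406822-80407071, ETS at -66: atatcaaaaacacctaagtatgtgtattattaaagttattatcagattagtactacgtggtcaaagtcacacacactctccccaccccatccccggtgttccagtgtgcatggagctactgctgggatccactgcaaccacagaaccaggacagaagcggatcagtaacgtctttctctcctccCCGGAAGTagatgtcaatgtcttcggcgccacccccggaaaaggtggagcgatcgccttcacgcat
Cox7c, chr13:86046796-86047045, no capitals: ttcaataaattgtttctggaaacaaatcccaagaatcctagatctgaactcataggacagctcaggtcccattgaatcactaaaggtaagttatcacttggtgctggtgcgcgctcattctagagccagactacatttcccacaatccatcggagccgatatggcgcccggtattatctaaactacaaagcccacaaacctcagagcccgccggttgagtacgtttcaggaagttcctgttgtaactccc
Cox7a2l, chr17:83514334-83514583, no capitals: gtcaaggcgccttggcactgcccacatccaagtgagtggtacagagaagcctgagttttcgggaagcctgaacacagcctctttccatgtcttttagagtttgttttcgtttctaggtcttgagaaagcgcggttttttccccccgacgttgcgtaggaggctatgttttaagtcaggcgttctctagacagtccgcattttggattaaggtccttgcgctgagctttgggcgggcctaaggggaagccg
The windows of Cox7c and Cox7a2l held none of the 4 motifs in these 250 bases, which says only that these letters are not there. In the full 300 bases, 35 of 74 genes held at least 1 of the 4 (47.3%, against 21.9% of protein-coding genes). A window with none was therefore common. Ndufaf7 and Cox6b2, each with an LSK difference of 0.55, also held none in the 250 bases. Genes with the NRF1 motif had a median LSK difference of 0.33 over 17 genes, and genes without it 0.25 over 57. In MP these medians were 0.16 and 0.13. With the E-box the LSK median was 0.23 over 6 genes, and without it 0.25 over 68, and in MP 0.09 and 0.15. With the YY1 motif the LSK median was 0.21 over 10 genes, and without it 0.25 over 64, and in MP 0.015 and 0.16. With the ETS motif the LSK median was 0.27 over 5 genes, and without it 0.25 over 69, and in MP less than 0.01 and 0.14. In MP the median was thus higher with than without the NRF1 motif and lower with than without the other 3.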

How the data were processed

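The deposited values are linear intensity, 1 per probe set, from RMA per the submitters' processing notes. The sources used here give no version or settings for it. RMA equalises the distributions of arrays, so a change shared by most genes is not seen, and it compresses differences of dim genes. Of 45101 probe sets, 34958 name 1 gene in the platform annotation, 932 name several and 9211 none. Symbols were looked up by gene ID in RefSeq (GRCm38.p6) for 34754, which renamed none of the 91 genes. These intensity values were taken to log2 and subtracted with Python 3.11.15, pandas 2.3.3 and numpy 2.4.6; figures used matplotlib 3.10.9. All named genes, treated in the same way, gave the background shares. A gene whose mean log2 reached the median of all values (intensity 157) was called above that level, as were 87 of the 91 genes; those below are Ndufb4, Cox8b, Cox7b2 and Cox7a1. Groups came from the sample titles. With 1 array per group the number of arrays limits the precision, and no test was made. The procedure was tested on simulated data.

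The 91 genes, the other lists, the markers and the naming rule were chosen with earlier results of these data known. The rule named, in each complex, the highest and lowest difference in 3 comparisons, genes past 2-fold, core subunits and isoforms. Other genes named with values (among them Ndufa5, Ndufab1, Ndufb10, Ndufa9, Ndufc1, Ndufaf7, Uqcr11 and Atp5l, and Nrf1, Gabpa, Gabpb1, Ppargc1a, Tfam, Slc25a31, Cycs and Fbxw7, and further probe sets) were added after their values were seen.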

Additional observations from a re-analysis of the deposited data

Results flagged for a closer look

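For 7 genes above the array median the genotype difference had opposite signs in the 2 populations, higher without Fbw7 in LSK and lower in MP, with a gap of LSK minus MP of at least 1.25-fold; gaps are on the log2 scale. The gap was 0.61 for Ndufa9 (0.40 in LSK and -0.20 in MP). It was 0.49 for Ndufc1 (0.46 and -0.03) and 0.45 for the assembly factor Ndufaf5 (0.39 and -0.06). In complex III it was 0.46 for Uqcrh (0.27 and -0.19), and in complex IV 0.33 for Cox8a (0.24 and -0.09). In complex V it was 0.48 for Atp5pb (0.20 and -0.28), and 1.80 on its second probe set (0.69 and -1.11), and 0.41 for Atp5mpl, a small membrane subunit (0.32 and -0.08). None of these 7 turned sign in LSK or MP under the scalings tried, but the MP difference of Ndufc1, at -0.03, was close to 0.

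As groups, the F1 genes of complex V had medians of 0.20 in LSK and -0.02 in MP, with a median gap of 0.11 over its genes, and the tissue or low-oxygen forms of complex IV had 0.12 and -0.01, with a median gap of 0.17. The MP signs of both groups turned with arrays centred on their medians. With 1 array per group, the difference between the populations was not tested for any of these genes or groups.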

How the results depend on the processing

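The medians and counts over the 91 genes were recomputed under 11 alternatives, 2 of them chosen after seeing the data. Of the 121 values, 114 stayed within a set factor of the value in the report and 7 moved further. That factor still allowed shifts such as 0.23 to 0.32 for the LSK genotype median. No median turned sign, and the counts have no sign to turn. The alternative with the symbols of the platform annotation repeated the values in the report, since none of the 91 genes was renamed. Some alternatives leave fewer genes, so counts are given as shares. The LSK genotype median ranged from 0.22 to 0.32 and its share above 0 from 83.5% to 92.4%, against 89.0% in the report. The MP median ranged from 0.11 to 0.16 and its share from 73.5% to 81.3%, against 74.7%. The share of genes lowest on the wild-type LSK array ranged from 75.6% to 89.0%, against 81.3%. For Fbw7-deficient LSK minus MP, centring arrays on their medians gave a median of -0.19 and 12 genes above 0, centring on upper quartiles gave -0.18 and 14, and the brightest probe set with a mean log2 under 13 gave -0.19. That last choice, added after seeing the data and leaving 79 genes, gave -0.34 for wild-type LSK minus MP and 0.18 for the gap between the LSK and MP genotype differences. The cause of these shifts was not tested. The count of genes at least 1.25-fold higher in Fbw7-deficient LSK was 30 of 91 in the report (against 10.5% of all named genes). It was 39 of 91 with upper-quartile centring (against 13.1%). With the brightest probe set under 13 it was 39 of 79 (against 10.7%). No paired analysis was possible because each group has 1 array, so that the groups share 1 replicate number, and for the same reason no array could be left out. The LSK minus MP differences were each taken within 1 pool of mice. An additive fit of genotype and population over the 4 arrays, with 1 residual degree of freedom, was not run: it would count a genotype difference that varies between populations as error. Genes near the array median carry little signal over background, and differences of a few hundredths on the log2 scale have no measured error here.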

Other observations

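Probe sets that name several genes were not used for the 91 genes, and 10 of them carry a complex I symbol. All 10 were higher in Fbw7-deficient than in wild-type LSK (against 54.2% of all named genes), with a median of 0.30. In MP 8 of 10 were higher (against 50.9%), with a median of 0.20. None of the 10 was higher in LSK than in MP cells of wild type (against 41.3%). They include subunits that the single-gene rule left out, and others already among the 91, such as Ndufs5, Ndufab1 and Ndufb2. Ndufb4, Ndufa11 and Ndufa13 each recur, so these are 10 probe sets and fewer genes, while the background shares count genes. The probe set shared by Ndufs6 and Ndufs6b read 4143, 5446, 5462 and 6489, a log2 difference of 0.39 in LSK. A probe set shared by Ndufa11 and Ndufa11b read 1541, 2048, 2068 and 2390.2, with 0.41. For Ndufb4, an accessory subunit of the membrane arm, the choice of probe set turned the direction: the dim single-gene probe set read 81.5, 68.7, 93.7 and 94.1, with -0.25 in LSK, while the one shared with Ndufb4b and Ndufb4c read 4794, 6357, 6578 and 7529, with 0.41. Which of the named genes gave these signals cannot be told apart.

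Among the regulators, Hif1a, which encodes the hypoxia factor, read 2732, 2502, 3566 and 2471 and was lower without Fbw7, with -0.13 in LSK and -0.53 in MP. Its known target Pdk1, which holds back pyruvate dehydrogenase, read 10349, 9701, 7903 and 8628, with -0.09 in LSK and 0.13 in MP. Slc25a4, an ADP and ATP carrier, read 10488, 12313, 8546 and 10262 and was higher without Fbw7 in both populations, by 0.23 and 0.26, but unlike most of the 91 genes in wild type it was higher in LSK than in MP cells, by 0.30. Hif1a, Pdk1 and Slc25a4 were chosen after their values were seen.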
